A study of Mus musculus with 32 samples.

Results

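Transcripts of 10 liver dehydrogenases that handle aldehydes and alcohols were examined: Aldh3a2, Aldh1a1, Aldh1a7, Aldh2, Aldh1b1, Aldh9a1, Aldh1l1, Adh1, Adh4 and Adh5. They were chosen by name out of 20076 genes counted in mouse liver, and each of the 10 passed the filter on low counts that left 11566 genes to test. The mice were males of the strain background C57BL/6J. They were either wild type (WT) or Acadm-knockout (MCAD-KO, below KO), received a low-fat (LF) or a high-fat (HF) semi-synthetic diet for 6 weeks, and were then fasted for 16 hours or left on the diet (fed). Each of the 8 groups held 4 mice with labelled ages between 7.5 and 16, for which the labels give no unit. The WT mice were littermates of the KO mice, per the study's methods. The HF diet drew its fat from palm oil.

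Of the 32 mice 2 were left out by the rule that defines this set of samples, so that all values below come from 30 mice. KO HF fasted replicate 4 held 43087 CPM (reads of a gene per 1000000 reads counted) over 12 heart genes and 813 CPM over 10 hepatocyte genes, where the 30 mice held at most 651 and at least 43106 CPM. WT LF fed replicate 2 was left out by name, and its values are in the closing section. Its mean correlation with its group (log2 CPM of 11502 genes) was 0.900, where the others of the group held 0.937 to 0.940. KO LF fasted replicate 1, which was kept, had a lower mean correlation of 0.886 with its group, whose 3 others held 0.914 to 0.920. It also had the lowest sums of periportal and pericentral genes in its group (7173 and 4110.2 CPM). Totals ranged from 2031053 to 4292200 reads per mouse. Genes of acinar pancreas reached 17535 CPM in WT HF fasted replicate 2 and 2568 CPM in KO HF fed replicate 1, and summed to at most 55.9 CPM in the LF mice. The targeted gene followed the labels: Acadm lay between 8.98 and 37.1 CPM in the 15 KO mice and between 189.8 and 748 CPM in the 15 WT mice.

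Aldehyde dehydrogenases oxidise aldehydes to acids with NAD or NADP, and alcohol dehydrogenases interconvert alcohols and aldehydes with NAD. In liver they act in series on ethanol and on retinol, and they clear aldehydes that arise from lipids. Fatty aldehydes, for example, arise in the omega-oxidation of fatty acids, in which a cytochrome P450 of the Cyp4 family hydroxylates the end of the chain and dehydrogenases turn it into a dicarboxylic acid, which peroxisomes can shorten. Medium-chain dicarboxylic acids are a known mark of MCAD deficiency.

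The start-site windows of 3 members are shown. These are Aldh3a2, which had the largest response to fasting, and Adh4 and Adh1, which lie on chromosome 3 and fell on average. Each window runs from 250 bases before to 50 bases after the RefSeq start (build GRCm38.p6), 5′ to 3′ in the direction of the gene. Capitals mark AGGTCA, the half-site of many nuclear receptors. The windows of Aldh3a2 and Adh1 used here lie wholly within the annotated genes, downstream of their outermost annotated starts. The windows are chr11:61267137-61267436 on the minus strand for Aldh3a2, chr3:138415247-138415546 on the plus strand for Adh4 and chr3:138277335-138277634 on the plus strand for Adh1.
Aldh3a2: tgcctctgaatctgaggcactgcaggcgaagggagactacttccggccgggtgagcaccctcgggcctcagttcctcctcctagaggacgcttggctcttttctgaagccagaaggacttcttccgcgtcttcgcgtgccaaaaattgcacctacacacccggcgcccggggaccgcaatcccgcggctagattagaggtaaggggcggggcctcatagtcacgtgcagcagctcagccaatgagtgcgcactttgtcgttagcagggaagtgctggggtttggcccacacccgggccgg
Adh4: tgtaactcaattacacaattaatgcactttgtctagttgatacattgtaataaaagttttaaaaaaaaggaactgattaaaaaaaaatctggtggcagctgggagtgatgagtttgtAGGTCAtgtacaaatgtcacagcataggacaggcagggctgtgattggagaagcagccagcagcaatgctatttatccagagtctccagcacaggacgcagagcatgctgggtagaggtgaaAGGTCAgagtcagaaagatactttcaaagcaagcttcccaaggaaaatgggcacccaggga
Adh1: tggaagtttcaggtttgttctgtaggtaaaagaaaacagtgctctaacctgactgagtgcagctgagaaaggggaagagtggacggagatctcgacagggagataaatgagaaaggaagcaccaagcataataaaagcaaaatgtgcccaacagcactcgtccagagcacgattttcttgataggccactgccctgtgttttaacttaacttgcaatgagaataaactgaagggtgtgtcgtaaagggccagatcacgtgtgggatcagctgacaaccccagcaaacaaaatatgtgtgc

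RefSeq windows were held for 9 of the 10 members (11 windows, since Aldh1a1 and Adh5 have 2 each), with none for Aldh2. AGGTCA stood in the windows of 2 members on either strand, against 16.3% of all 32841 promoters. In Adh4 it occurred at both 133 and 11 bases before the start, and in Aldh1l1 as its reverse complement 178 bases before the start. The Aldh1l1 window also lies wholly within the annotated gene. A direct repeat of AGGTCA with 1 base between its copies was in no member's window and in 0.0396% of all promoters. AGAACA followed after 3 bases by TGTTCT, a palindrome bound by the glucocorticoid receptor, was likewise in no member's window and in 0.00913% of all promoters. Both strands were read. TGACNNNGC was in Aldh9a1 (12.4% of all promoters), and TATAAA was in Aldh1a7 and Adh5 (13.6%). These matches describe letters in a short window and were not tested against the expression values.

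The members lie on 7 chromosomes (GRCm38). Adh1 (chr3:138260991-138290698), Adh4 (chr3:138415466-138430892) and Adh5 (chr3:138443093-138455499) lie in this order on the plus strand, with 124768 bases between Adh1 and Adh4 and 12201 bases between Adh4 and Adh5. Aldh1a1 (chr19:20492715-20643465, plus strand) and Aldh1a7 (chr19:20692953-20727562, minus strand) are close paralogs that lie 49488 bases apart. Of the 2017 distinct 50-base words in the annotated Aldh1a7 transcript, 151 also occur in Aldh1a1 transcripts, and 50 bases is the length of the reads. None of the 151 lies in the last 600 bases of Aldh1a7, where 3′ reads fall, but 74 of the shared words lie in the last 600 bases of one or another Aldh1a1 transcript. Reads from the shared stretches cannot be assigned to either gene with certainty. No other pair of members shared a word of this length.

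**Figure D1:**
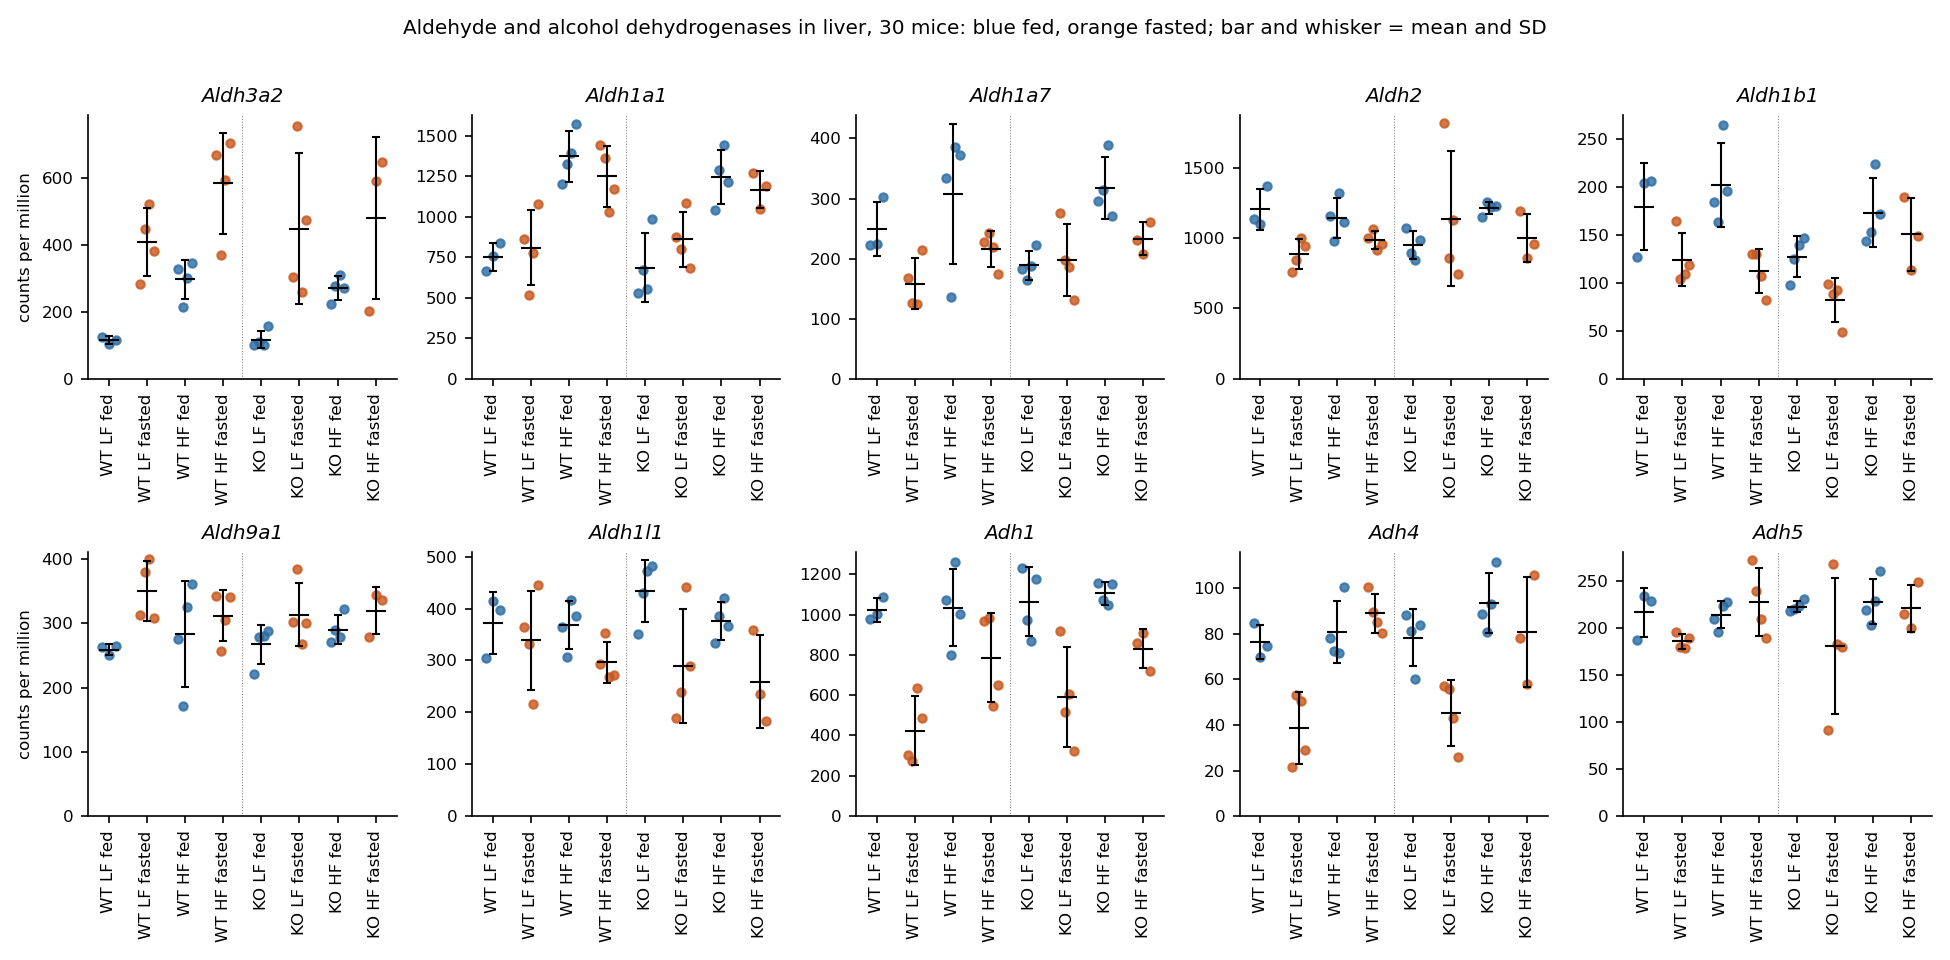
Level of each member in CPM (vertical axes, each from 0) in the 8 groups; points are single mice (blue fed, orange fasted), and bars with whiskers are the mean and SD of 3 or 4 mice. Among the 30 mice shown, Aldh3a2 is lowest in the LF fed groups, between 102 and 156 CPM. Adh4 is lowest in the LF fasted groups, between 21.6 and 56.9 CPM.

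Levels are given as CPM after TMM scaling. The libraries start at the 3′ end of a transcript, so that reads per gene do not grow with transcript length and CPM was not divided by length. In the mean over 30 mice the order of levels was Aldh2 (1062 ± 216 CPM, SD), Aldh1a1 (1023 ± 299.8), Adh1 (853 ± 284), Aldh1l1 (344 ± 82.2), Aldh3a2 (343 ± 196), Aldh9a1 (299.99 ± 48.9), Aldh1a7 (233 ± 74.8), Adh5 (211 ± 34.3), Aldh1b1 (143 ± 47.7) and Adh4 (72.5 ± 23.1). Between neighbours in this order the ranges of mean ± SD were separate only for Adh1 and Aldh1l1, so that 3 abundant members stood apart from 7 others. This holds for the pooled mice and not for each group. In WT LF fasted mice Adh1 averaged 424 ± 170 CPM and Aldh3a2 408 ± 101 CPM. Aldh2 ranked 99th and Adh4 1944th of the 11566 genes tested. Aldh3a2 had the largest SD relative to its mean.

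The first comparison asked what fasting did, averaged over genotype and diet. Aldh3a2, the fatty aldehyde dehydrogenase that oxidises long-chain aldehydes at the endoplasmic reticulum and peroxisome, rose 2.62-fold. Adh1, Adh4, Aldh1b1, Aldh1l1 and Aldh1a7 fell, by factors between 1.31 and 1.66. Aldh9a1, Aldh1a1, Aldh2 and Adh5 did not pass the test. Thus 6 of the 10 members were called at an adjusted p below 0.05, 1 higher and 5 lower, where 18.9% of all genes were called, 9.77% higher and 9.14% lower (edgeR quasi-likelihood test with Benjamini-Hochberg adjustment over all genes). The median log2 fold change was -0.28 over the members and -0.002 over all genes.

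Aldh3a2 measured 126, 105 and 116 CPM in the WT LF fed mice and 282, 447, 521 and 382 CPM after fasting. On the LF diet the KO mice held 102, 110.4, 102 and 156 CPM when fed and 304, 755, 258 and 474 CPM when fasted. Fed and fasted mice did not overlap in either genotype on this diet. On the HF diet the WT mice held 329, 215, 300.3 and 345 CPM when fed and 668, 369, 593 and 704 CPM when fasted. The KO mice on HF held 223, 278, 309 and 271 CPM when fed and 204, 591 and 647 CPM when fasted. Fed and fasted WT mice were again apart, whereas KO HF fasted replicate 1 lay below each of its fed counterparts. The average log2 fold change was 1.39 (SE 0.16, adjusted p = 3.09e-07, edgeR), with a 95% interval of 1.05 to 1.72. Each lane was also fitted alone, with additive terms for feeding, diet and genotype in place of the 8 groups. Those fits gave 1.18 among the 16 mice of lane 7 (adjusted p = 0.0588, edgeR) and 1.56 among the 14 mice of lane 8 (adjusted p = 5.7e-08, edgeR). Lane 7 held no WT LF fed mice, so the lane values and the average weigh the groups differently.

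Adh1, the main cytosolic oxidiser of ethanol and also of retinol, held between 799.8 and 1261 CPM in the 15 fed mice (median 1070.2) and between 273 and 983 CPM in the 15 fasted mice (median 634). It fell by 0.73 on the log2 scale (SE 0.13, adjusted p = 4.65e-05, edgeR). Its lowest values were in WT LF fasted mice, which held 301, 273, 634 and 487 CPM against 977, 1004 and 1089 CPM in their fed group. In the KO mice on LF the fasted values of 918, 515, 608 and 323 CPM overlapped the fed ones of 1233, 973, 868 and 1177 CPM. On HF the WT values overlapped too, whereas the KO mice held 861, 908 and 721 CPM fasted and 1046 to 1157 CPM fed.

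Adh4, which oxidises longer alcohols and retinol, fell by 0.46 (SE 0.12, adjusted p = 0.00333, edgeR) on the log2 scale. With WT LF fed replicate 2 included this call was lost (log2 fold change -0.39, adjusted p = 0.0658). Aldh1b1, a mitochondrial enzyme for acetaldehyde and other aldehydes, ranged from 98.0 to 265 CPM in fed mice and from 48.9 to 190.0 CPM in fasted mice and fell by 0.55 (SE 0.11, adjusted p = 0.000266, edgeR). Aldh1l1, the 10-formyltetrahydrofolate dehydrogenase of one-carbon metabolism, ranged from 304 to 482 CPM fed and from 183 to 445 CPM fasted and fell by 0.39 (SE 0.11, adjusted p = 0.00809, edgeR). Fed and fasted mice overlapped for each of these genes when pooled over diet and genotype. Aldh1a7, the paralog of the retinaldehyde dehydrogenase Aldh1a1, ranged from 136 to 389.6 CPM fed and from 124 to 276 CPM fasted and fell by 0.39 (SE 0.12, adjusted p = 0.0197, edgeR). That call was lost without WT LF fed replicate 4 (log2 fold change -0.35, adjusted p = 0.0501).

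The 4 members that did not pass included the most abundant enzymes. Aldh9a1, which makes the carnitine precursor gamma-butyrobetaine from its aldehyde, had a log2 fold change of 0.24 (95% interval 0.06 to 0.41, adjusted p = 0.0519, edgeR). It passed the threshold with DESeq2 and with limma voom (adjusted p = 0.0422 and 0.042) and when 1 of 9 mice was left out, KO LF fasted replicate 1 among them (adjusted p = 0.036). Aldh2, the mitochondrial acetaldehyde dehydrogenase, differed by -0.17 (interval -0.36 to 0.02), and passed without KO LF fasted replicate 1 (log2 fold change -0.25, adjusted p = 0.0112), whose 1817 CPM was the highest value of all mice. Aldh1a1 differed by 0.05 (-0.15 to 0.25), and Adh5, the glutathione-dependent formaldehyde dehydrogenase, by -0.12 (-0.31 to 0.07). None of the 10 members separated all 15 fed from all 15 fasted mice, which 0.19% of all genes did with higher and 0.104% with lower values after fasting.

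All 6 called members moved in the same direction on both sequencing lanes, with 0 calls among the mice of lane 7 (2 members at an unadjusted p below 0.05) and 7 among those of lane 8. Over all genes 344 were called on lane 7 and 1449 on lane 8, against 2187 in the fit of the 30 mice. The WT LF fed mice were all on lane 8, and lanes are taken from the labels. Marker genes of other cell types and tissues were read beside these values. The sum over 7 adipose genes was 18.4 to 174 CPM in fed and 37.6 to 353 CPM in fasted mice. Of its 4 genes tested 1 rose with fasting, and leptin and adiponectin had 1 and 97 reads in all 30 mice together. The sum over 8 periportal hepatocyte genes was 5331 to 10705 CPM fed and 6670 to 22637 CPM fasted, and that over 7 pericentral genes was 3299.7 to 6520 CPM fed and 4110.2 to 9954 CPM fasted. These sums rest on abundant genes such as Pck1 and Cyp2e1, and gene by gene 3 periportal markers rose and 2 fell, and 3 of the 7 pericentral markers rose and 1 fell. Of 7 stellate cell markers 2 fell (median log2 fold change -0.51), of 5 erythroid markers tested 2 fell (-0.28), and of 7 macrophage markers 1 fell (-0.18). No adrenal marker was called. Their part in the changes of the members was not tested. In whole liver, fewer cells of a type and less RNA per cell cannot be told apart.

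**Figure D2:**
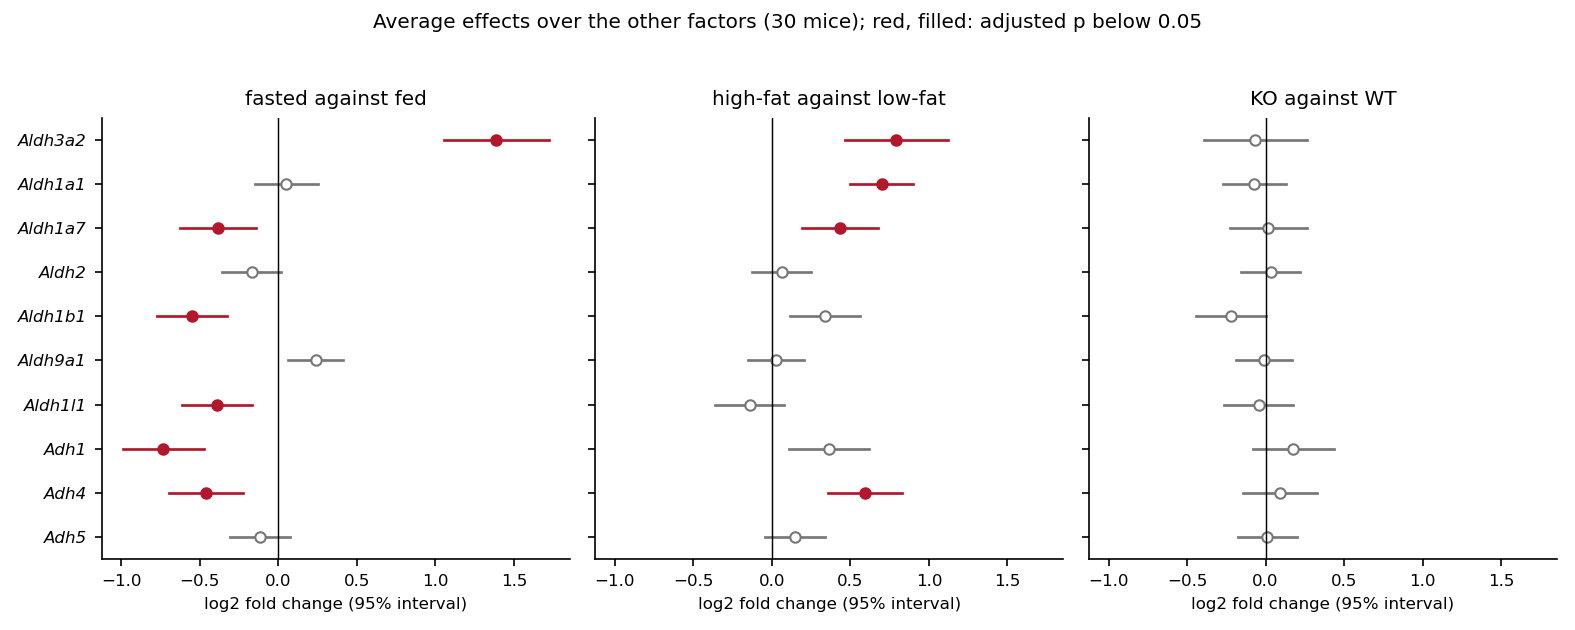
Log2 fold change of each member with its 95% interval (horizontal axes) for fasted against fed, HF against LF and KO against WT, each averaged over the other factors in 30 mice; filled red points passed an adjusted p below 0.05. Fasting has 1 red point to the right and 5 to the left, diet has 4 to the right, and genotype has none.

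The second comparison asked what the diet did. Aldh3a2, Aldh1a1, Adh4 and Aldh1a7 were higher on HF, by 1.73-fold, 1.62-fold, 1.51-fold and 1.35-fold, and no member was called lower. Thus 4 of 10 members were called, where 3.49% of all genes were called, 2.26% higher and 1.24% lower. The fold change was above 1 for 9 of the 10 members, with a median log2 value of 0.35 against 0.007 over all genes. Aldh1l1 was the exception at -0.14 (95% interval -0.36 to 0.08).

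Aldh1a1, the cytosolic retinaldehyde dehydrogenase, was higher on HF in the means of fed and of fasted mice of both genotypes. The WT mice on LF held 667, 756 and 841 CPM fed and 865, 519, 776 and 1083 CPM fasted. Those on HF held 1200.3, 1326, 1394 and 1575 CPM fed and 1445, 1362, 1029 and 1170.2 CPM fasted. Fed WT mice of the diets were apart, and in the fasted ones a single LF value exceeded the lowest HF value. In the KO mice the LF values were 533, 672, 555 and 990.1 CPM fed and 877, 799, 1087 and 683 CPM fasted. The HF values were 1043, 1292, 1446 and 1213 CPM fed and 1270.3, 1047 and 1189 CPM fasted. The diets were again apart in fed mice, and 1 LF value lay within the HF range in fasted mice. The average log2 fold change was 0.70 (SE 0.10, adjusted p = 2.61e-05, edgeR). The additive fits of single lanes gave 0.78 on lane 7 (adjusted p = 0.0274, edgeR) and 0.70 on lane 8 (adjusted p = 0.0105, edgeR).

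For Aldh3a2 the difference between diets was 0.79 on the log2 scale (SE 0.16, adjusted p = 0.00438, edgeR), and for Adh4 it was 0.59 (SE 0.12, adjusted p = 0.00182). In the 30 mice, fed mice of both genotypes carried the Aldh3a2 difference without overlap. The LF fed mice were at or below 156 CPM and the HF fed mice at or above 215 CPM. The left-out WT LF fed replicate 2 held 250 CPM, within the HF fed range. Among fasted mice the Aldh3a2 values of the diets overlapped. Aldh1a7 differed by 0.43 (SE 0.12, adjusted p = 0.0355, edgeR). This call was lost in 16 of the 30 fits that leave out 1 mouse, with adjusted p-values up to 0.0774 (edgeR). Of the members not called, Aldh1b1 had a log2 fold change of 0.34 (0.11 to 0.56) and Adh1 of 0.36 (0.11 to 0.62; adjusted p = 0.0234 without KO LF fasted replicate 1 and 0.0300 without WT LF fasted replicate 3), whereas Aldh2, Aldh9a1 and Adh5 lay at 0.06 (-0.13 to 0.25), 0.03 (-0.15 to 0.20) and 0.15 (-0.04 to 0.34). All 4 called members had the same sign on both lanes, with 1 call on lane 7 and 3 on lane 8. Over all genes 53 were called on lane 7 and 85 on lane 8, against 404 in the fit of the 30 mice. The sums over genes of acinar pancreas were highest in 2 HF mice, and without these mice 3 of the 4 calls remained, Aldh1a7 being at an adjusted p of 0.0648. On HF 2 of 7 pericentral markers were higher (median log2 fold change 0.24), 1 of 8 periportal markers was lower (-0.27) and 1 of 7 stellate cell markers was higher (0.37), and their part in the diet result was not tested.

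The third comparison asked whether the loss of MCAD altered these genes. Among the members 0 of 10 were called by edgeR for KO against WT, 0 were below an unadjusted p of 0.05 (2.9% of all genes were), and DESeq2 and limma voom called 0 as well. Over all genes 0.00865% were called, which is the single gene Acadm. The widest interval among the members was that of Aldh3a2, at -0.07 (95% interval -0.39 to 0.26). Aldh1b1 had the most extreme value, at -0.22 (-0.45 to 0.003, unadjusted p = 0.0533). For each of the 10 members the interval left out a 1.5-fold difference in either direction. Within the 4 conditions 0 members were called in each by edgeR, DESeq2 or limma voom, with 0.00865% of all genes called by edgeR in each. At an unadjusted p below 0.05 stood 1 member, Aldh1b1, in LF fed mice (log2 fold change -0.49, 3.89% of all genes) and in LF fasted mice (-0.60, 5.91%), and 0 members in HF fed and HF fasted mice (2.73% and 2.49%). Its values were 127, 205 and 207 CPM in WT and 98.0, 125, 140.1 and 147 CPM in KO LF fed mice, which overlapped. In LF fasted mice they were 165, 104, 109.5 and 118 CPM in WT and 98.8, 88.8, 92.8 and 48.9 CPM in KO, without overlap, as for 1.05% of all genes in that direction. In LF fed mice Aldh1a7 and Aldh2 did not overlap between genotypes and were lower in KO, as were 3.58% of all genes. For Aldh2 this rests on 3 WT mice. The left-out WT LF fed replicate 2 held 502 CPM, below all KO LF fed mice (at least 845 CPM). Neither the response to fasting nor the response to diet was called as different between KO and WT for any member (0 of 10 by edgeR, DESeq2 and limma voom, with 0% of all genes called by edgeR in both). At an unadjusted p below 0.05 the difference in fasting response held 0 members (4.95% of all genes), and the difference in diet response held Aldh1b1 alone (3.43% of all genes), with a log2 difference of 0.64 (SE 0.22, unadjusted p = 0.00592 and above the threshold after adjustment, edgeR).

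The fourth comparison asked whether the response to fasting depended on the diet. Adh4 was the only member called, with a log2 difference of 0.86 between the responses on HF and on LF (SE 0.23, adjusted p = 0.0365, edgeR), where 2.46% of all genes were called, 1.26% higher and 1.2% lower. On LF the WT mice held 84.6, 70.1 and 74.5 CPM fed and 21.6, 53.4, 50.5 and 29.1 CPM fasted, and the KO mice held 88.4, 81.4, 60.1 and 83.9 CPM fed and 56.9, 55.6, 43.3 and 25.8 CPM fasted. On HF the WT mice held 78.2, 72.5, 71.8 and 101 CPM fed and 101, 89.5, 85.2 and 80.5 CPM fasted, and the KO mice held 88.7, 80.7, 93.1 and 112 CPM fed and 78.3, 58.2 and 106 CPM fasted. In the 30 mice, low values were thus found in LF fasted mice of both genotypes, which did not overlap with any other group. The left-out WT LF fed replicate 2 held 22.4 CPM, within the LF fasted range. The fall on LF was 0.99 (SE 0.24, adjusted p = 0.00595) in WT and 0.78 (SE 0.23, adjusted p = 0.0158) in KO, and the log2 fold change on HF was 0.14 (SE 0.22) in WT and -0.21 (SE 0.24) in KO. The call for the difference depended on the setting. The adjusted p was 0.0569 with lane as a term, 0.0622 with the replicate number as a block, 0.0807 without the 2 mice with pancreas genes, and above 0.05 in 19 of the 30 fits that leave out 1 mouse, up to 0.102 without KO HF fasted replicate 3. In all of these fits the difference stayed positive, between 0.73 and 0.95 when 1 mouse was left out.

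Adh1 and Aldh3a2 also had unequal responses on the diets, at an unadjusted p below 0.05 (13.3% of all genes) and short of the adjusted threshold. For Adh1 the log2 difference was 0.65 (SE 0.25, adjusted p = 0.204, edgeR), and for Aldh3a2 it was -0.97 (SE 0.32, adjusted p = 0.122). DESeq2 called Aldh3a2 as well as Adh4 (adjusted p = 0.0339 and 0.02). One condition at a time, fasting called 3 members in WT on LF (7.54% of all genes called) and 4 in KO on LF (13.8%). Aldh3a2, Adh1 and Adh4 were called in both, with Aldh3a2 at 1.81 (SE 0.35) in WT and 1.93 (SE 0.32) in KO and Adh1 at -1.27 (SE 0.26) and -0.85 (SE 0.24), and Aldh1b1 was called in KO at -0.63 (SE 0.22). Among HF mice 0 members were called by edgeR in WT (0.424% of all genes called) and 0 in KO (0.527%). At an unadjusted p below 0.05 stood 3 members in WT (9.19% of all genes), Aldh3a2, Aldh1b1 and Aldh1a7, and 2 in KO (7.53%), Aldh3a2 and Aldh1l1. With DESeq2 2 members were called in WT and 0 in KO on HF, and with limma voom 0 in each. For these tools the share of all genes called was not computed in single conditions. In KO on HF the log2 fold change of Aldh3a2 was 0.83 (SE 0.33, adjusted p = 0.447), and it was called without KO HF fasted replicate 1 (adjusted p = 0.0356). In KO on LF the calls of Aldh1b1, Adh1 and Adh4 were each lost without KO LF fasted replicate 4 (adjusted p = 0.193, 0.0699 and 0.0884), and those of Adh1 and Adh4 also without KO LF fed replicate 1 (0.0533 and 0.0510) and that of Adh1 without KO LF fasted replicate 2 (0.0515). Genes of the adrenal cortex summed to 293 CPM in KO LF fasted replicate 3 and 126 CPM in replicate 4, while no other mouse exceeded 41.9 CPM. Their part in these calls was not tested.

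Counts of members whose groups did not overlap in the 30 mice were as follows. The left-out WT LF fed replicate 2 held 502 CPM of Aldh2 and 22.4 CPM of Adh4. With it counted, neither gene would be apart in WT mice on LF. Between fed and fasted WT mice on LF, 2 members were apart and higher after fasting (Aldh3a2 and Aldh9a1, 9.96% of all genes) and 4 apart and lower (Aldh1a7, Aldh2, Adh1 and Adh4, 10.2%). In KO mice on LF these were Aldh3a2 (6.73%) and Adh4 (6.97%), 1 each way. On HF they were Aldh3a2 (3.23%) and Aldh1b1 (2.7%) in WT, and Aldh1a7 and Adh1, both lower, in KO (5.2%).

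**Figure D3:**
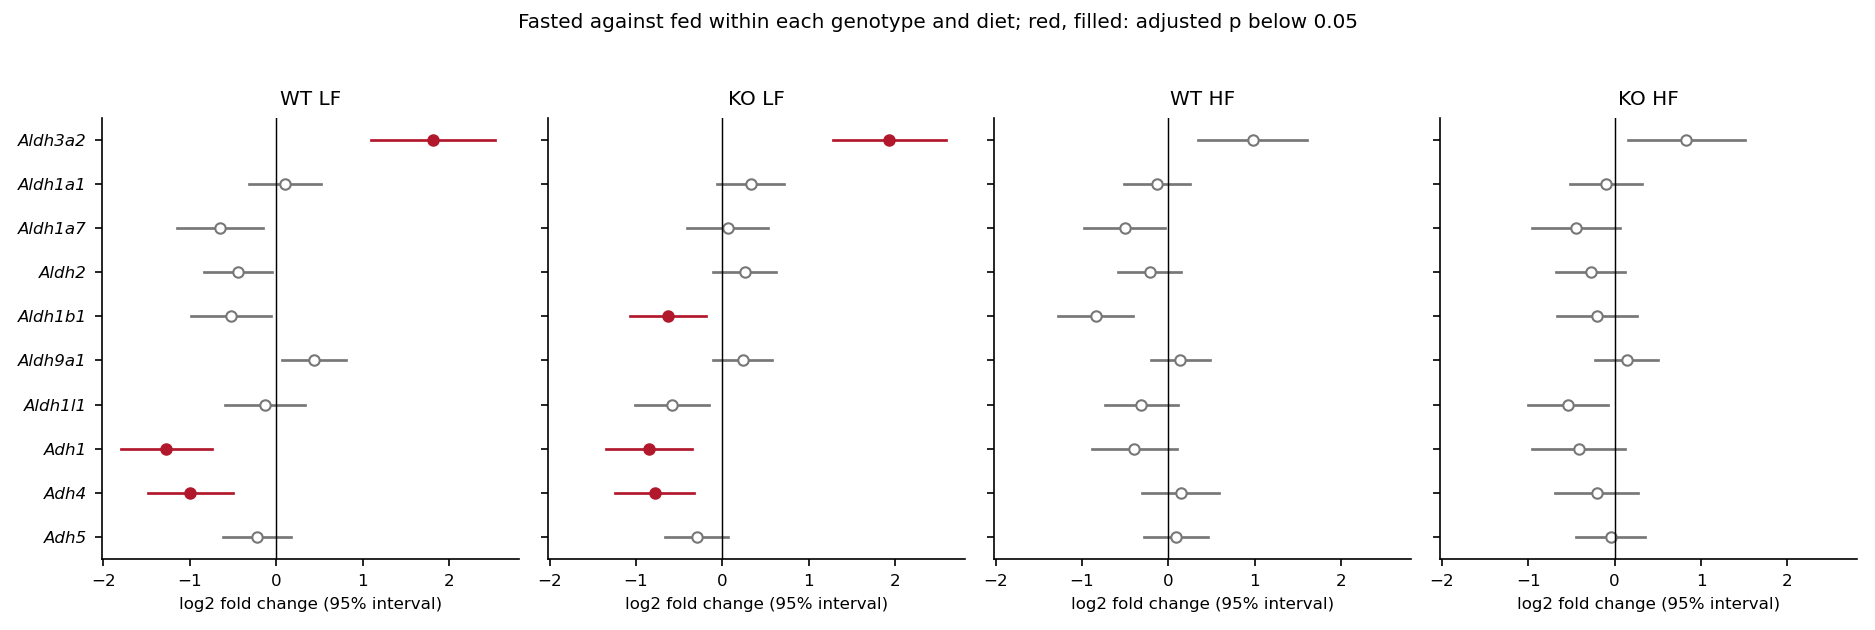
Log2 fold change of each member after fasting with its 95% interval (horizontal axes), within WT and KO mice on each diet; filled red points passed an adjusted p below 0.05. Red points occur in both LF panels, with Aldh3a2 to the right and Adh1 and Adh4 to the left, and in neither HF panel.

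The diet contrast within single conditions gave 1 call in fasted WT mice (1.12% of all genes), which was Adh4 at 1.21 (SE 0.23, adjusted p = 0.00236, edgeR), and 1 in fasted KO mice (1.68%), which was Aldh1b1 at 0.88 (SE 0.23, adjusted p = 0.0377). Aldh1b1 measured 98.8, 88.8, 92.8 and 48.9 CPM in KO LF fasted mice and 190.0, 114 and 149 CPM in KO HF fasted mice. These groups did not overlap, as was the case for 5.16% of all genes in that direction. The call was lost without KO LF fasted replicate 4, KO HF fasted replicate 1 or KO HF fasted replicate 3 (adjusted p = 0.153, 0.264 and 0.117) and with the replicate block. Among fed mice 0 members were called in WT and 0 in KO (0.0778% and 0.00865% of all genes). Aldh3a2 was 2.56-fold on HF in WT and 2.30-fold in KO fed mice (adjusted p = 0.252 and 0.267, edgeR), and Aldh1a1 had a log2 fold change of 0.86 in both. At an unadjusted p below 0.05 there were 2 members in fed WT (5.22% of all genes) and 4 in fed KO mice (7.26%). DESeq2 called 2 members in each genotype, and limma voom called 0. The share of all genes called by these tools was not computed for single conditions, so their counts have no background here. Without overlap and higher on HF were 2 members in fed WT mice (Aldh3a2 and Aldh1a1, 4.34% of all genes) and 4 in fed KO mice (these, Aldh1a7 and Aldh2, 2.95%). Fasted WT mice held 1 such member (Adh4, 3.79%), and fasted KO mice held Aldh1b1 and Adh4. With the left-out WT LF fed replicate 2 counted, at 250 CPM, Aldh3a2 would overlap between the diets in fed WT mice.

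The rest of the pathways was described from lists that carry no test of their own. Over all genes 9.77% were called higher and 9.14% lower after fasting. Of the omega-hydroxylases, which make the alcohols upstream of fatty aldehydes, 10 of 13 were tested, and 6 rose and 1 fell with fasting. Cyp4a14, Cyp4a10 and Cyp4a31 rose by 4.97, 4.22 and 4.16 on the log2 scale and Cyp4f14 fell by 1.32, and since the Cyp4a genes are near-identical copies their reads may be shared between them. Of 12 genes of peroxisomal breakdown of dicarboxylic acids, 10 rose and none fell, among them Acot3 (3.68), Ehhadh (3.05), Acot4 (1.56) and Acaa1a (1.29). The medians of these lists were 0.56 and 1.11, against -0.28 over the members and -0.002 over all genes.

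Other enzymes that clear aldehydes were mixed, where 9.77% of all genes were called higher and 9.14% lower after fasting. Carbonyl reductase Cbr1 rose (0.54), and Ptgr1, which reduces lipid-derived enals, the aldehyde oxidase Aox3 and Hagh fell (-1.70, -0.87 and -0.26) among 12 tested. Of 6 further Aldh genes tested, Aldh4a1 of proline breakdown fell (-0.47) and 5 did not pass, and of 2 further Adh genes tested Adh7 rose 2.29-fold. Near Aldh9a1 in carnitine supply, the carnitine transporter Slc22a5 rose (2.13) and Bbox1 stood at 0.27 without passing. Beside Aldh1l1 in folate metabolism, 1 of 5 genes was called, Mthfd1 (-0.24). In ethanol oxidation Cyp2e1 rose (0.93) and the acetyl-CoA synthetase Acss2 fell (-2.21). On HF the called genes of these lists were Aox3 (1.03), Gsta4 (0.68), Aox1 (0.46) and Cyp2e1 (0.37), which were higher, and Cyp4a12b (-0.68), which was lower. For diet 2.26% of all genes were called higher and 1.24% lower.

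**Figure D4:**
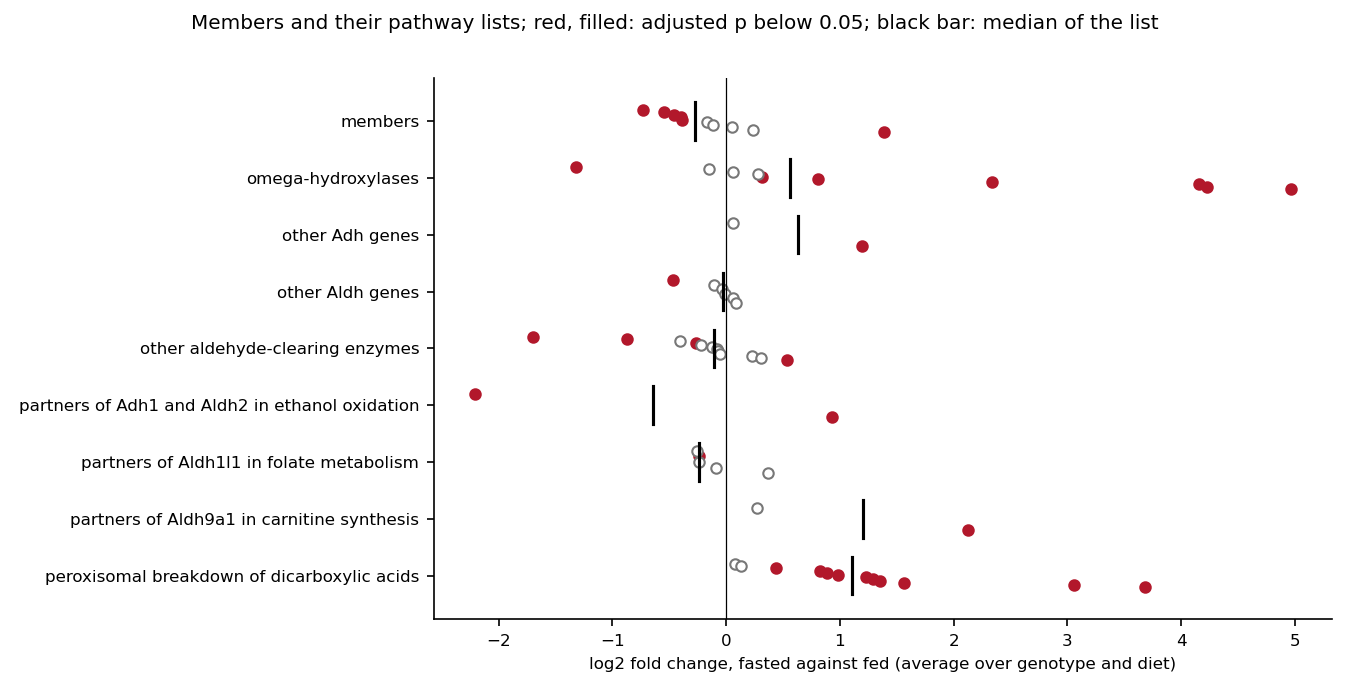
Log2 fold change of fasted against fed mice (horizontal axis) for the members and the genes tested in 8 related lists (vertical axis); filled red points passed an adjusted p below 0.05 and black bars are medians. The peroxisomal list lies to the right of 0 in all 12 genes, while 7 of the 10 members lie to the left.

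Some genes had group means like those of the members. Over the 8 group means of log2 CPM, among 7397 genes of at least 10 CPM, Aldh3a2 was nearest to Slc1a2 (Pearson r = 0.98), Vnn1 (0.98) and Dram2 (0.97). Slc1a2 is itself one of the pericentral marker genes. Adh4 was nearest to Psmb10, Aox3 and Sord (each r = 0.98). The other nearest genes were Xk, Oma1 and Amd2 for Aldh1a7 (r from 0.95 to 0.96), Zadh2, Car14 and Gmcl1 for Aldh1b1 (0.96 to 0.97) and Nr2f6, Orai1 and 5031425E22Rik for Aldh1l1 (0.97 to 0.99). The 8 means share the same mice, and with so few points such values are a description only. Among the members Adh4 and Adh5 had an r of 0.92 and Adh1 and Adh4 of 0.91, while Aldh3a2 had negative values with all but Aldh1a1 and Aldh9a1.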

How the data were processed

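Lexogen QuantSeq 3′ libraries were made from total RNA of freeze-clamped liver and sequenced as single reads of 50 bases. The authors aligned the reads to GRCm38 with HISAT 0.1.5, sorted them with SAMtools 1.2 and deposited whole-number read counts per gene from HTSeq 0.6.1p1, without normalization. Symbols for 19913 of 20076 identifiers and positions came from GENCODE vM21, and promoters from RefSeq (GRCm38.p6). Protein sequences were not used here. Groups, replicate numbers, lanes and ages came from the labels, and each replicate is a mouse.

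The counts of 30 mice were fitted in R 4.3.3 with edgeR 4.0.16 in 1 model with a mean for each of 8 groups (TMM factors, filterByExpr, robust quasi-likelihood F test, 22 residual degrees of freedom). Each effect is a contrast of group means, and p-values were adjusted by Benjamini-Hochberg over 11566 genes and called at 0.05. The fits of single lanes instead held additive terms for feeding, diet and genotype. The standard error is the log2 fold change divided by the square root of F. CPM are reads per 1000000 of the TMM-scaled library size. The code was run on counts simulated from the means and spreads of the same fit. These held no outlying mice, lane effects or other tissues, so that run does not test the fit on these data. The study used limma voom, with DESeq2 for comparison; limma voom is an alternative here (limma 3.58.1), as are DESeq2 1.42.0, other scaling, filters, mice, and terms for lane, age and replicate block. Mice with equal replicate numbers showed no common deviation (median r = 0.006 over 98 pairs, against -0.002 over 295 pairs with different numbers). Such a median cannot exclude a pairing of some mice. The labels name no litters, so a pairing by litter could not be tested.

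The members, lists and left-out mice were chosen with earlier results of these data known. Named are all members, Acadm, up to 4 called genes with the smallest p per list and comparison, and the 3 genes nearest to each member called for fasting, of which those of Adh1 are not reported here.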

Additional observations from a re-analysis of the deposited data

Results flagged for a closer look

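Tests for a mouse far from the others were run on 60 sets of 4 mice (each member in each group of 4), of which chance flags about 1 in 20, and 2 were found. Aldh3a2 in KO LF fed replicate 4 was 156 CPM, where the 3 others held 102 to 110.4 CPM. Aldh9a1 in KO LF fed replicate 1 was 221 CPM, where the 3 others held 279 to 288 CPM.

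Adh4 differed between the diets in its response to fasting, by 0.86 on the log2 scale in the test of that difference. The values by mouse and the settings that end the call stand in the report.

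WT LF fed replicate 2, which no comparison uses, held 1021 CPM of Aldh1b1 (3238 reads), above the 265 CPM that was the highest of the 30 mice. It was below the lowest of the 30 mice for Aldh1a1 (496 CPM) and Aldh2 (502 CPM). For the 7 others it was within their range, with Aldh3a2 at 250 CPM and Adh4 at 22.4 CPM. Aldh9a1 lay at the edge, at 171.9 CPM against a lowest of 171.7 CPM. The CPM of left-out mice were scaled with all 32 mice and these ranges with the 30, so a place this close to an edge is not secure. The sum of the pericentral hepatocyte genes was 950 CPM in this mouse and at least 3299.7 CPM in the 30, and its part in these values was not tested. KO HF fasted replicate 4, the library with heart genes, was below the 30 mice for all 10 members, from 1.6 CPM of Adh4 to 169.9 CPM of Aldh2.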

How the results depend on the processing

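Of 7480 values of single members under alternative settings, 7127 kept their direction and side of the threshold, 88 lost and 71 gained a call, 0 reversed as a called value, and 194 were uncalled values that changed sign. Members called changed as follows, and the cause of these changes was not tested. With all 32 mice the calls for fasting went from 6 to 3, for diet from 4 to 0, for the difference in fasting response between diets from 1 to 0, for fasting in WT LF from 3 to 1, in KO LF from 4 to 1, and for diet in fasted WT and fasted KO from 1 to 0 each. With 31 mice, WT LF fed replicate 2 included, fasting kept a count of 6 in which Adh4 was lost (adjusted p = 0.0658) and Aldh9a1 gained (0.0359), and the calls were 0 for the difference between diets, 5 for fasting in WT LF, 2 in KO LF, 1 for diet in fed WT and 0 in fasted KO. Lane 7 alone gave 0 for fasting and 1 for diet. The replicate block gave 0 for the difference between diets and 0 for diet in fasted KO, and changed no other count by more than 1.5 times. Lane as a term gave 0 for the difference between diets, and so did leaving out the 2 mice with pancreas genes, a setting chosen after seeing the data, which also gave 1 for fasting in WT HF. DESeq2 gave 2 for the difference between diets, 2 for fasting in WT HF, 2 for diet in fed WT, 3 in fasted WT, 2 in fed KO and 2 in fasted KO, and limma voom gave 2 in fasted WT. Without a filter on low counts there was 1 call for fasting in WT HF, 1 for diet in fed WT, 1 in fed KO and 2 in fasted KO. With at least 10 counts in every mouse there was 1 for fasting in WT HF, 2 for diet in fasted WT and 2 in fasted KO, and with age as a covariate 1 for fasting in WT HF.

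When 1 mouse was left out, the calls ranged from 5 to 8 for fasting, 3 to 5 for diet, 0 to 1 for the difference between diets, 3 to 4 for fasting in WT LF, 0 to 1 in WT HF, 1 to 5 in KO LF and 0 to 1 in KO HF. For diet they ranged from 0 to 1 in fed WT, 1 to 2 in fasted WT, 0 to 1 in fed KO and 0 to 2 in fasted KO, and for every comparison of KO with WT they stayed at 0. Leaving out KO LF fasted replicate 4 took the calls in KO LF to 1. The Adh4 difference between diets kept its call without WT LF fasted 2 or 3, WT HF fed 4, WT HF fasted 3 or 4, KO LF fed 3, KO LF fasted 1, 2 or 3, KO HF fed 4 or KO HF fasted 2, and lost it without any other single mouse. The Aldh1a7 diet call was lost without WT LF fed 1 or 3, WT LF fasted 2 or 3, WT HF fed 1, 3 or 4, WT HF fasted 1 or 2, KO LF fed 1, 2 or 3, KO LF fasted 4, KO HF fed 3 or KO HF fasted 1 or 3. Aldh1b1 for fasting in KO LF was lost without KO LF fed 2, 3 or 4, KO LF fasted 2 or 4, or KO HF fasted 3. Over all genes, calls for fasting went from 2187 to 344 on lane 7 and 1449 on lane 8, and calls for diet from 404 to 81 with 32 mice, 53 on lane 7 and 85 on lane 8. With 3 or 4 mice per group, the printed intervals give the differences that these data leave undecided.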

Other observations

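The pathway lists also held genes whose response to fasting differed between the diets, where 2.46% of all genes were called. They were chosen after their values were seen. Of 10 omega-hydroxylases tested, Cyp4a14, Cyp4a31 and Cyp4a10 had a lower response on HF than on LF (log2 differences of -4.03, -2.84 and -2.15) and Cyp4f14 a higher one (0.98). Of 12 peroxisomal genes, Acot3 and Acaa1a had a lower response (-3.10 and -0.89). The aldehyde oxidase Aox3 had a higher response (1.69, adjusted p = 0.00158, edgeR), and Cbr1 (-0.93) and the carnitine transporter Slc22a5 (-1.67) had lower ones. The medians of the difference were -0.15 over the omega-hydroxylases and -0.79 over the peroxisomal genes, against -0.11 over the members and -0.009 over all genes. Several of these genes have near-identical copies that may share reads.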
